A study of Mus musculus with 2 samples.

Results

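A set of 10 genes of lipid handling, known from the lipid-loaded macrophages of atherosclerosis, was followed across 3 cell classes of 1 single-cell library: Apoe, Trem2, Gpnmb, Spp1, Cd36, Abca1, Abcg1, Fabp5, Lgals3 and Plin2. They were taken by symbol, and all 10 of 10 were among the 32285 genes of the deposited matrix. The library came from 12-week-old C57BL/6J males, 2 in number, and the labels name no other genotype or treatment. Aortic cells were grown for 14 days in methylcellulose, and dispersed macrophage colonies (colony forming unit macrophage) were sorted for viability with the dye DAPI and sequenced as 1 pool, with suspensions marked by lipid-anchored MULTI-seq DNA tags. The mice were pooled and no cell can be assigned to a mouse, so every value below describes 1 library and has no replicate check.

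After filters, 29285 of 34813 barcodes were kept, with a median of 12485 unique molecular identifiers (UMIs, 1 per captured RNA molecule) per cell. Clusters made without the listed genes gave 2527 macrophage-like cells (8.63% of cells), 5100 fibroblast-like cells (17.4%) and 21292 mast cell-like cells (72.7%, in 5 clusters). The 7 mast cell markers summed to 60705 CPM (UMIs per 1000000 gene UMIs) in their own class, against 18601 and 7946 CPM in the macrophage-like and fibroblast-like classes. The 6 fibroblast markers summed to 12030 CPM in their own class, against 282 and 201 CPM in the macrophage-like and mast cell-like classes. The 9 macrophage markers summed to 10032 CPM in macrophage-like cells, less than the mast cell markers did there, against 99.9 CPM in the fibroblast-like and 48.6 CPM in the mast cell-like class. No marker of these 3 lists was at 0 in any class. The colonies were labelled as macrophage progenitors, but most cells carried mast cell markers. Xist, the RNA of the inactive X chromosome of female cells, was detected in 58.6% of macrophage-like, 82.2% of fibroblast-like and 65.0% of mast cell-like cells, which goes against the labelled male sex. These shares were not brought to equal depth (medians of 8435, 31010 and 11302 UMIs in that order), so they cannot be compared between classes. The 3 tags in the matrix are named Cafum, Matrigel and Macrophages, and the labels do not say which suspension each one marks.

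Macrophages take up modified lipoproteins through scavenger receptors such as CD36, free the cholesterol in lysosomes, store it as ester in droplets coated by perilipins, and export it through the transporters ABCA1 and ABCG1 to acceptors that include apolipoprotein E. The sterol-sensing LXR receptors raise transcription of both transporters and of Apoe. TREM2 is a lipid-sensing receptor of macrophages, and in plaque and fat its expression goes with that of Gpnmb, Spp1, Fabp5, Lgals3 and Cd9 in cells known as foamy or lipid-associated macrophages. Several of these genes also have well-known roles outside macrophages, such as osteopontin (Spp1) in mesenchymal cells and galectin-3 (Lgals3) in many myeloid cells.

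The genes did not share 1 pattern. Apoe, Trem2, Cd36, Abca1 and Plin2 were highest in macrophage-like cells, Spp1, Gpnmb and Fabp5 in fibroblast-like cells, and Lgals3 and Abcg1 in mast cell-like cells. Against mast cell-like cells, 7 of the 10 genes were higher by 2-fold or more in macrophage-like cells and 0 were lower, beside 18.0% higher and 11.9% lower of all 10619 genes with a mean of at least 5 CPM over the 3 classes. Against fibroblast-like cells, 6 were higher (18.0% of all genes tested) and 2 were lower (17.7%). Fibroblast-like cells had 8 of the 10 higher by 2-fold or more than mast cell-like cells (21.9% of all genes tested) and 1 lower (15.7%). Of these 8, Trem2 (2.92 and 0.298 CPM) and Cd36 (7.36 and 3.29 CPM) were low in both classes. They reached the mean of 5 CPM only through macrophage-like cells (43.6 and 1015 CPM). Both were within the range of macrophage markers described below, and the part of macrophage RNA was not tested. The Cd36 call held in 9 of 12 alternative settings. The median log2 ratio of the 10 genes was 3.38 for macrophage-like over mast cell-like cells, 1.57 over fibroblast-like cells, and 1.99 for fibroblast-like over mast cell-like cells, where the medians of all genes tested were -0.15, -0.07 and -0.02. The comparisons share classes, and the genes were named from knowledge of macrophages, so these counts are a description.

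**Figure D1:**
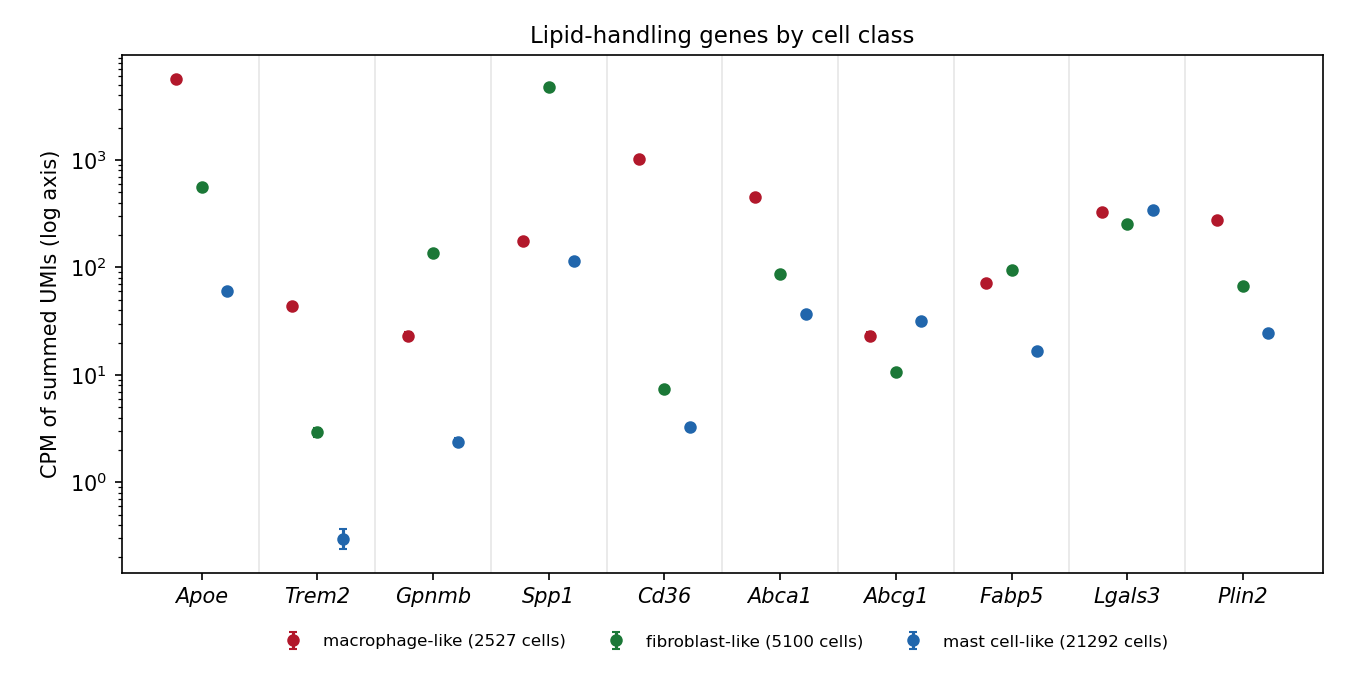
Level of each gene in CPM (log axis) in macrophage-like, fibroblast-like and mast cell-like cells; points are sums over all cells of a class and bars are exact 95% Poisson intervals, often smaller than the point. The 5 genes highest in macrophage-like cells include Apoe at 5688 CPM and Cd36 at 1015 CPM, whereas Spp1 reached 4805 CPM in fibroblast-like cells and Lgals3 was between 252 and 345 CPM in all 3 classes.

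Apoe encodes apolipoprotein E, a lipoprotein component that accepts exported cholesterol, on chromosome 7 (19696109 to 19699188, minus strand, GRCm38). It stood at 5688 CPM in macrophage-like cells (95% interval 5658 to 5717, counting error only, as in all intervals here), at 556 CPM in fibroblast-like cells (553 to 560) and at 60.5 CPM in mast cell-like cells (59.6 to 61.4). The macrophage-like level was 10.2-fold that of fibroblast-like cells and 93.9-fold that of mast cell-like cells. Each cell was also thinned to 5500 UMIs, since median depth was 8435, 31010 and 11302 UMIs in macrophage-like, fibroblast-like and mast cell-like cells. At that depth 97.2% of macrophage-like, 73.9% of fibroblast-like and 26.7% of mast cell-like cells had an Apoe UMI (without thinning 97.6%, 94.6% and 47.5%). Thinning left out 553 macrophage-like, 187 fibroblast-like and 1443 mast cell-like cells of lower depth.

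Trem2, the lipid-sensing receptor, lies on chromosome 17 (48346401 to 48354147, plus strand). It was at 43.6 CPM in macrophage-like cells (41.1 to 46.3), 2.92 CPM in fibroblast-like cells (2.67 to 3.20) and 0.298 CPM in mast cell-like cells (0.239 to 0.368). The ratios were 14.9-fold (13.4 to 16.7) and 146-fold (117 to 184). Only 18.4% of thinned macrophage-like cells had a Trem2 UMI (25.1% unthinned), with 1.67% of fibroblast-like and 0.196% of mast cell-like cells. Trem2 was above its level in the other classes but was sampled in a minority of macrophage-like cells at this depth.

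Cd36, the fatty acid and oxidised lipoprotein receptor, lies on chromosome 5 (17781690 to 17888801, minus strand). It had the highest ratio of the 10 genes between macrophage-like and mast cell-like cells, at 308-fold (289 to 329), with levels of 1015, 7.36 and 3.29 CPM in macrophage-like, fibroblast-like and mast cell-like cells. After thinning, 86.4% of macrophage-like cells had a UMI (90.3% unthinned), against 2.54% of fibroblast-like and 1.88% of mast cell-like cells. Fabp5, an intracellular fatty acid carrier on chromosome 3 (10012548 to 10016607, plus strand), did not follow Cd36. Its level was 72.0 CPM (68.7 to 75.3), 95.7 CPM (94.2 to 97.2) and 16.6 CPM (16.2 to 17.1) in the 3 classes in that order, so the first 2 were within 2-fold of each other. After thinning, Fabp5 was found in 14.5%, 22.8% and 6.35% of cells.

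The sterol exporters had different orders. Abca1, which loads cholesterol onto lipid-poor apolipoproteins (chromosome 4, 53030787 to 53159895, minus strand), was at 456 CPM in macrophage-like cells (447 to 464), 86.3 CPM in fibroblast-like cells and 36.8 CPM in mast cell-like cells, 12.4-fold below the macrophage-like level. Abcg1, which passes sterol to mature lipoprotein particles (chromosome 17, 31057675 to 31117988, plus strand), was highest in mast cell-like cells at 31.4 CPM (30.8 to 32.1), followed by macrophage-like cells at 23.0 CPM (21.2 to 24.9) and fibroblast-like cells at 10.6 CPM (10.1 to 11.2). Thinned shares had the same orders, with Abca1 in 75.1%, 35.5% and 18.8% and Abcg1 in 9.63%, 6.13% and 16.2% of macrophage-like, fibroblast-like and mast cell-like cells. Plin2, the droplet coat protein perilipin 2 (chromosome 4, 86648386 to 86670060, minus strand), went with Abca1. Its levels in the same order were 275, 67.2 and 24.6 CPM, and 64.4%, 27.3% and 12.7% of thinned cells had a UMI.

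Spp1 encodes osteopontin, a secreted matrix phosphoprotein (chromosome 5, 104435118 to 104441050, plus strand), and was 27.2-fold higher in fibroblast-like than in macrophage-like cells. Fibroblast-like cells had 4805 CPM, macrophage-like cells 177 CPM and mast cell-like cells 114 CPM. The thinned share with a Spp1 UMI was 94.7% for the first class but still 53.8% and 47.5% for the other two. Gpnmb, a glycoprotein of lysosomes and melanosomes (chromosome 6, 49036546 to 49070929, plus strand), was likewise highest in fibroblast-like cells, at 137 CPM (135 to 139), with 23.0 CPM (21.2 to 24.9) among macrophage-like and 2.38 CPM (2.21 to 2.57) among mast cell-like cells. Thinned shares for Gpnmb were 46.8%, 2.53% and 1.36% in fibroblast-like, macrophage-like and mast cell-like cells. Lgals3, the galactose-binding galectin-3 (chromosome 14, 47367751 to 47386160, plus strand), varied least. It was at 331 CPM, 252 CPM and 345 CPM in macrophage-like, fibroblast-like and mast cell-like cells and was in 62.0%, 66.9% and 80.4% of thinned cells.

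**Figure D2:**
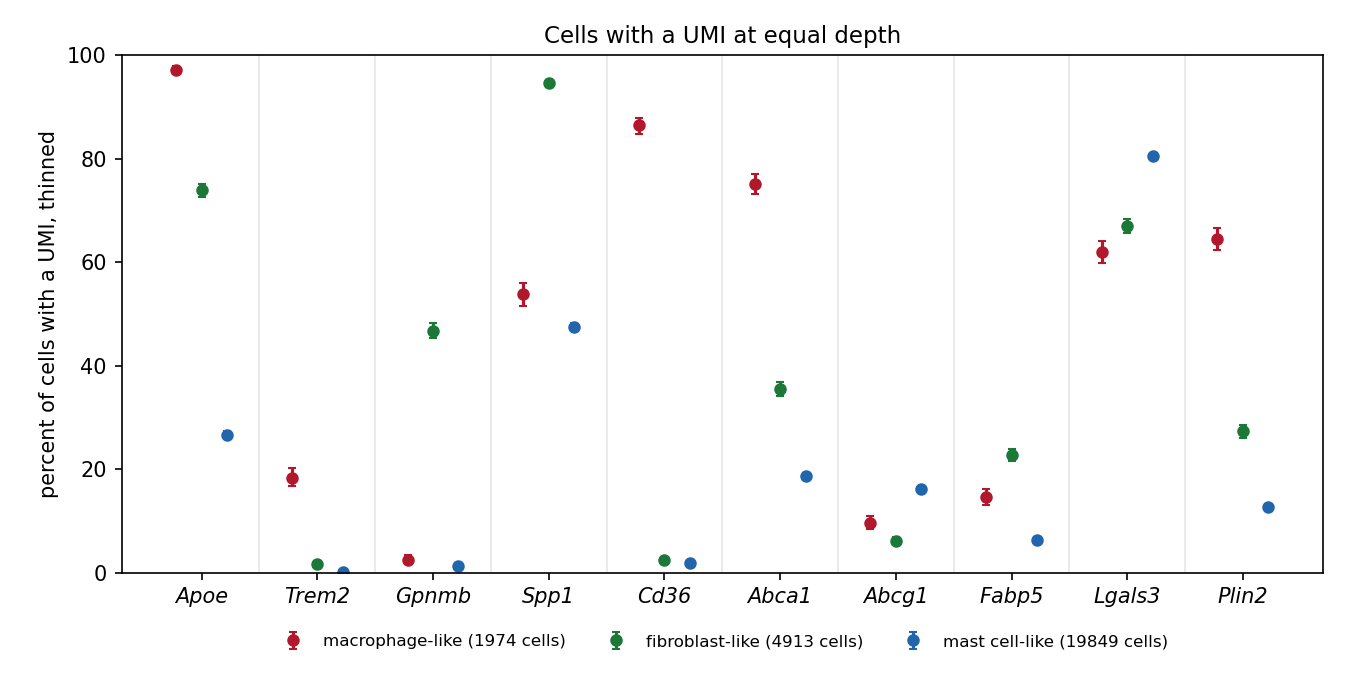
Percent of cells with at least 1 UMI of each gene after every cell was thinned to 5500 UMIs, by class; bars are exact 95% binomial intervals. Gpnmb was in 46.8% of fibroblast-like but 2.53% of macrophage-like cells, and Lgals3 was in most cells of each class.

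Free RNA and mixed droplets can put UMIs of 1 class into the others, so each level was set beside that of the classes' own markers. Mast cell markers stood in macrophage-like cells at 0.272 to 0.352 of their mast cell-like level, and in fibroblast-like cells at 0.120 to 0.141. Fibroblast markers reached 0.0191 to 0.0390 of their own level in macrophage-like cells and 0.0140 to 0.0268 in mast cell-like cells. Macrophage markers reached 0.00282 to 0.0177 in mast cell-like cells. In fibroblast-like cells they lay between 0.00512 and 0.136, where the highest was Mertk and the next was 0.0264. Spp1 was within the range of fibroblast markers in both other classes, at 0.0367 of its fibroblast-like level in macrophage-like cells and 0.0238 in mast cell-like cells, above 5 of the 6 markers and below Lum in each. The part of carried-over RNA in these levels was not tested. Apoe (0.0106) and Trem2 (0.00684) in mast cell-like cells were within the range of the macrophage markers, above 8 of the 9 and below Cd68. Cd36 was near the low end of that range in the mast cell-like class (0.00325) as in the fibroblast-like class (0.00725), with 8 of the 9 markers above it in each. Gpnmb in mast cell-like cells, at 0.0174, was within the range of the fibroblast markers. Apoe and Trem2 in fibroblast-like cells, at 0.0978 and 0.0669 of the macrophage-like level, were above 8 of the 9 macrophage markers and below Mertk.

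The other genes exceeded the marker ranges. Abca1 (0.189 and 0.0808 of the macrophage-like level) and Plin2 (0.244 and 0.0892) exceeded all 9 macrophage markers in fibroblast-like and in mast cell-like cells. Fabp5 was at 0.752 of its fibroblast-like level in macrophage-like cells and at 0.174 in mast cell-like cells, above all 6 fibroblast markers. Lgals3 was at 0.959 of its mast cell-like level in macrophage-like cells and at 0.730 in fibroblast-like cells, and Abcg1 at 0.731 and 0.339, above all 7 mast cell markers. As a further setting, 0.309 of each gene's mast cell-like level was subtracted from its macrophage-like level. From its fibroblast-like level 0.137 of the mast cell-like level was subtracted, with no rescaling afterwards in either class. Abcg1 then fell below the mast cell-like level by more than 2-fold (log2 ratio -1.24 in place of -0.45). Lgals3 did not (-0.62 in place of -0.06). The subtraction lowers every such ratio, and 41.0% of all genes were then lower by 2-fold or more, beside 11.9% without it. Gpnmb in macrophage-like cells, at 0.168, was above all 6 fibroblast markers. Most of that level came from 2 cells, described next, and without them the ratio was 0.0453, closer to the highest of those markers (0.0390) and still above it.

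**Figure D3:**
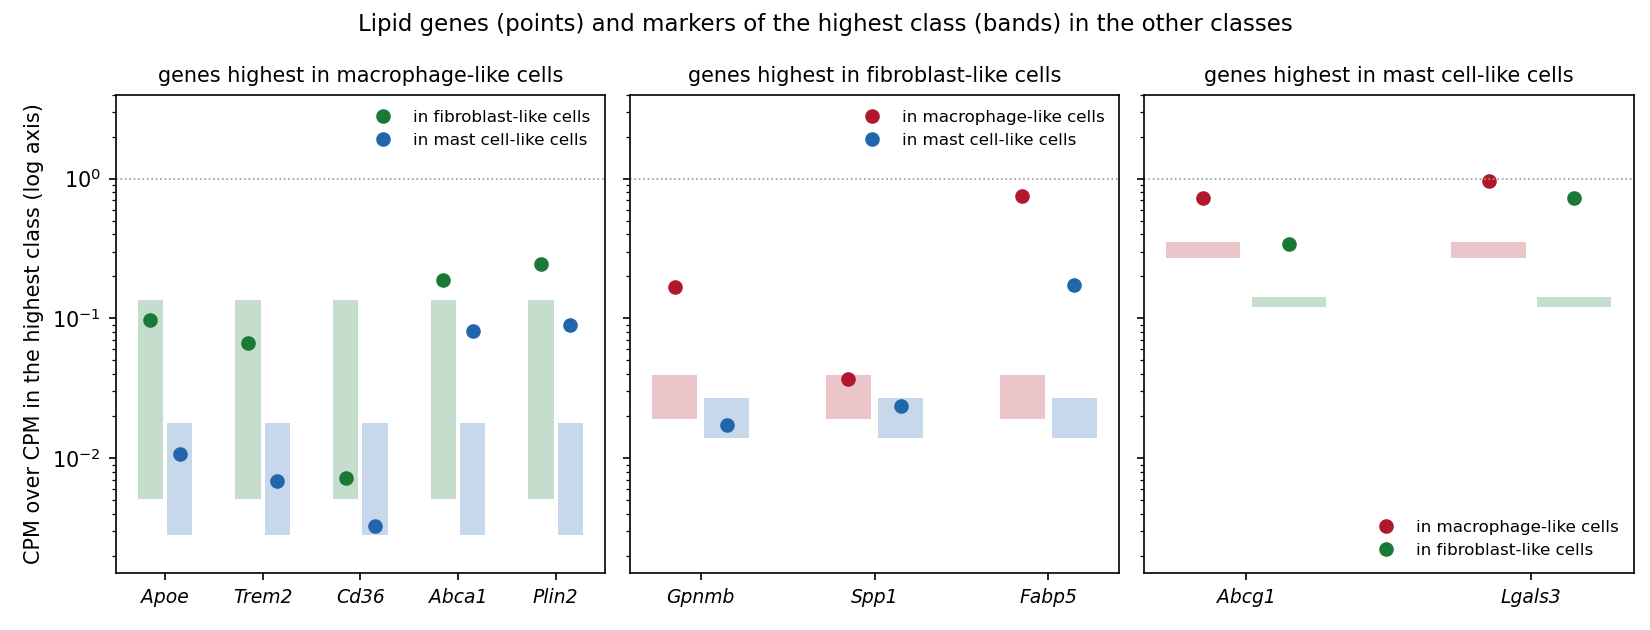
Level of each gene in the 2 classes where it was not highest, as a ratio to the class where it was highest (log axis); bands span the same ratio over the markers of that highest class. Points inside a band, such as Spp1 in mast cell-like cells (0.0238), have ratios that markers of the other class also reach, and points above it, such as Plin2 in fibroblast-like cells (0.244), have higher ratios than any of those markers.

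Only 2 macrophage-like cells held 430 of the 588 Gpnmb UMIs of their class (73.1%). The first had 362 Gpnmb, 443 Spp1, 373 Fabp5, 18 Trem2 and 289 Mmp12 UMIs among 62794 UMIs, with 2 UMIs of the complement gene C1qa and 0 of Lyve1. The second had 68 Gpnmb, 193 Fabp5, 87 Spp1, 48 Trem2 and 159 Lgals3 UMIs among 48314 UMIs, with 162 C1qa UMIs. The same cells held 566 of 1839 Fabp5 UMIs (30.8%) and 530 of 4511 Spp1 UMIs (11.7%) of the class. Without them Gpnmb fell to 6.21 CPM (5.28 to 7.26), Fabp5 to 50.0 CPM and Spp1 to 156 CPM, whereas Trem2 was 41.2 CPM and Lgals3 was 323 CPM. The next highest macrophage-like cell had 15 Gpnmb UMIs. The first carried the Cafum tag and the second the Matrigel tag, while most macrophage-like cells (1859) carried the Macrophages tag alone, and both were far deeper than the class median. These cells were singled out after their values were seen, and whether they are single cells was not tested.

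Promoter sequence was available from RefSeq (GRCm38.p6) for 8 of the 10 genes, and the 250 bases before the start site were searched on both strands for 4 motifs. These were AGGTCA, the core element of LXR and PPAR nuclear receptors, CACGTG, the E-box bound by MITF and TFE factors, TGACTCA, the AP-1 site, and GAGGAAGT, a PU.1 site. Of 32851 mouse promoter windows, 14.0% held AGGTCA, 6.02% CACGTG, 4.46% TGACTCA and 2.44% GAGGAAGT. The windows below are shown for 3 genes that were highest in macrophage-like cells and for both secreted or lysosomal glycoproteins that were highest in fibroblast-like cells; capitals mark a match, read as TGACCT where AGGTCA lies on the other strand.
Trem2, chr17:48346151-48346400, plus strand: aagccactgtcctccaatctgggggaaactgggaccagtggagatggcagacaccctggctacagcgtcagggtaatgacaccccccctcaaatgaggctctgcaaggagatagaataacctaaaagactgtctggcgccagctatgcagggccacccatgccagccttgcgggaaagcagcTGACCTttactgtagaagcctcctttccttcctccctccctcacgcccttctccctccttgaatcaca
Cd36, chr5:17835897-17836146, minus strand: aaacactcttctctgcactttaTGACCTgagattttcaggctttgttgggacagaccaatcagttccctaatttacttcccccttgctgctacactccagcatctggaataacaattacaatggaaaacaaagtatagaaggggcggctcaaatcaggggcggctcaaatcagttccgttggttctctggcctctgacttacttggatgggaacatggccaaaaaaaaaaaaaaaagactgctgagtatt
Abca1, chr4:53159896-53160145, minus strand: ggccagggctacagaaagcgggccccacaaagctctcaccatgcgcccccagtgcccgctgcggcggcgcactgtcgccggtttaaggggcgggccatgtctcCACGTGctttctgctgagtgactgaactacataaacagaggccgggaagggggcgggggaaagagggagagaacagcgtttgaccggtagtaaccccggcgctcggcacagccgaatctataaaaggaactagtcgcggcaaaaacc
Spp1, chr5:104434861-104435110, plus strand: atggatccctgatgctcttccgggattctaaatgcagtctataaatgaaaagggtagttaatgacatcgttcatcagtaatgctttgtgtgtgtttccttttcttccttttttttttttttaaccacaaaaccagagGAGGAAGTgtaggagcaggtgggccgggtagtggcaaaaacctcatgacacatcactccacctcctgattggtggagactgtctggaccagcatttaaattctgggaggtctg
Gpnmb, chr6:49036268-49036517, plus strand: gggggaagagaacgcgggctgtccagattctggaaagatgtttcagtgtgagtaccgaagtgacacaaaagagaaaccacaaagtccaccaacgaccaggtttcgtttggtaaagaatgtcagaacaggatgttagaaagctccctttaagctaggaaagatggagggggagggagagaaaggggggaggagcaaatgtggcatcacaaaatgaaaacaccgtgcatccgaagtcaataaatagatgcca

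The AGGTCA match began 68 bases before the start site in Trem2 and 228 bases before it in Cd36, and another match lay 218 bases before the Plin2 start. The Abca1 window held CACGTG 147 bases before the start, and the Spp1 window shown held GAGGAAGT 113 bases before it. No match to the 4 motifs was found in the windows of Gpnmb, Apoe or Lgals3. The windows of Trem2, Abca1, Spp1 and Gpnmb overlapped no exon of GENCODE M21 and lay outside annotated genes, while that of Cd36 lay inside an intron of the longer Cd36 gene model. A match describes these letters only, and binding was not measured here.

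Among macrophage-like cells the genes differed in the subcluster where they were highest. Reclustering gave 9 subclusters, 6 of them with at least 100 cells, again made without the listed genes. Cells with high Lyve1, Folr2 and Timd4, the markers of resident vascular macrophages, formed M2 (585 cells), M4 (276) and M5 (263), and Lyve1-low cells with high Il1b and Mmp12 formed M3 (485). Of the 983 Mmp12 UMIs of the class, 1 M3 cell held 289 and another M3 cell 123, so the Mmp12 level rests in part on few cells. M2 was led by the haemoglobin genes Hbb-bs, Hba-a2, Hba-a1 and Hbb-bt. M4 was led by Cyyr1, Sparc and Serpinh1, and M5 by Mucl1. Apoe was 8807 CPM in M2 and M4 and 10133 CPM in M5, against 6685 CPM in M3. Abca1 was 998 CPM in M2, 395 CPM in M4, 454 CPM in M5 and 358 CPM in M3, and Cd36 was 1707 CPM in M2 and 1703 CPM in M5 against 1150 CPM in M3 and 1017 CPM in M4. Trem2, Lgals3, Fabp5, Gpnmb and Abcg1 had their highest level of these 4 subclusters in M3.

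Trem2 stood at 104 CPM in M3 (43.1, 37.9 and 35.1 CPM in M2, M4 and M5), and still at 88.7 CPM (79.3 to 98.9) without the 2 cells described above. Lgals3 was 461 CPM in M3 and 408 CPM without those cells, against 193, 200 and 118 CPM in M2, M4 and M5. Fabp5 and Gpnmb in M3 rested mainly on those cells: Fabp5 was 210 CPM with them and 61.2 CPM (53.4 to 69.8) without, and Gpnmb was 126 CPM with them and 11.5 CPM (8.31 to 15.6) without. For comparison, Fabp5 was 57.0 CPM in M2 and 45.8 CPM in M4, with 19.2 CPM in M5. Gpnmb was 4.62, 7.16 and 5.77 CPM in M2, M4 and M5. Plin2 differed little, between 276 and 381 CPM over these 4 subclusters.

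M1 (619 cells) and M6 (189 cells, led by S100a9 and S100a8) were rich in mast cell RNA. The mast cell chymase Cma1 was at 13961 CPM in M1 and 5421 CPM in M6, against 1304 to 2766 CPM in the other 4, and 443 of the M1 cells carried more than 1 tag. Apoe was low in both, at 3021 CPM and 2882 CPM. Lgals3 was highest in M6, at 609 CPM, and Fabp5 was 118 CPM there. The part of mast cell RNA in these levels was not tested. With M1 and M6 left out, Apoe was 8124 CPM, Cd36 1407 CPM and Trem2 57.1 CPM in the 1719 remaining macrophage-like cells, and Abcg1 was 17.5 CPM.

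Spp1 was highest in M4, at 320 CPM (2.58-fold M1), and in M3, at 306 CPM, of which 170 CPM was left without the 2 cells. In M4 the collagen gene Col1a1 was at 210 CPM, against 43.1 to 68.2 CPM in the other 5, and the fibroblast markers summed to 824 CPM against 215 to 306 CPM. The part of fibroblast RNA in the M4 level was not tested.

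**Figure D4:**
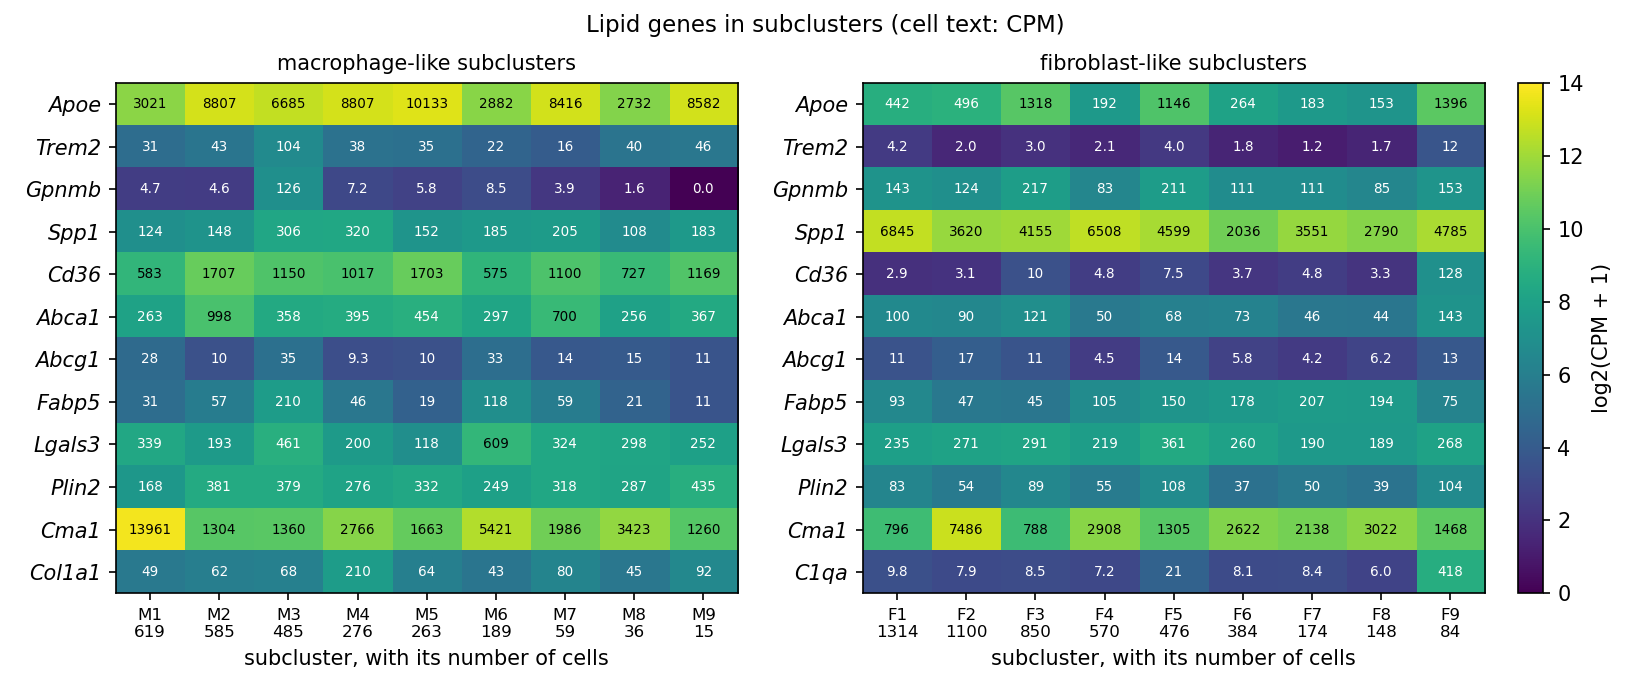
Levels in subclusters of macrophage-like (M1 to M9, left) and fibroblast-like cells (F1 to F9, right); colour is log2(CPM + 1), the printed values are CPM, and cell numbers stand under each column. Trem2 was highest in M3 and Abca1 in M2, Apoe was higher in F3 and F5 than in F1 and F4, and the last 2 rows show markers of other classes (Cma1 and Col1a1, or Cma1 and C1qa).

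In fibroblast-like cells Spp1 and Apoe varied differently. The 8 fibroblast-like subclusters of at least 100 cells spanned 3.36-fold in Spp1, from 2036 CPM in F6, led by interferon-induced genes such as Ifit1, to 6845 CPM in F1, led by Dpp6 and Postn. Apoe spanned 8.59-fold, from 153 CPM in the cycling F8 to 1318 CPM in F3. F3 held most C7 (133 CPM), with Adipoq at 29.9 CPM and Cfd at 105 CPM. The 5 listed adipocyte markers, Adipoq among them, summed to 12.2 CPM over all fibroblast-like cells. The lipoprotein lipase gene Lpl was lower in F3 (203 CPM) than in F1 (301 CPM). F4, marked by Dlk1 and Crabp1, had high Spp1 (6508 CPM) and low Apoe (192 CPM). F5, led by H19 and C3, had Apoe at 1146 CPM with Spp1 at 4599 CPM. Gpnmb was also high in F3 and F5, at 217 CPM and 211 CPM, and was lowest in F4, at 83.5 CPM, a span of 2.60-fold. It did not follow Apoe throughout. F1 had more Gpnmb than F2 (143 and 124 CPM) but less Apoe (442 and 496 CPM). The macrophage markers without Mertk summed to 42.5 CPM in F3, within the 27.5 to 48.0 CPM of F1, F2, F4 and F6 to F8. In F5 they summed to 84.7 CPM, the highest of these 8. The part of macrophage RNA in the F5 levels was not tested.

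Fabp5 was highest in cycling fibroblast-like cells, at 207 CPM in F7 and 194 CPM in F8, and lowest in F3, at 44.8 CPM (4.62-fold below F7). Abca1 was 121 CPM in F3 and 44.1 CPM in F8, and Plin2 was between 37.0 CPM in F6 and 108 CPM in F5. Lgals3 stayed within 1.91-fold, from 189 to 361 CPM. Cd36 was at most 10.1 CPM in these 8 subclusters but reached 128 CPM in F9 (84 cells), where C1qa was 418 CPM and 62 cells carried more than 1 tag. Without F9 and the mast-rich F2 (Cma1 7486 CPM), Cd36 in fibroblast-like cells was 5.16 CPM, less than 2-fold above mast cell-like cells.

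**Figure D5:**
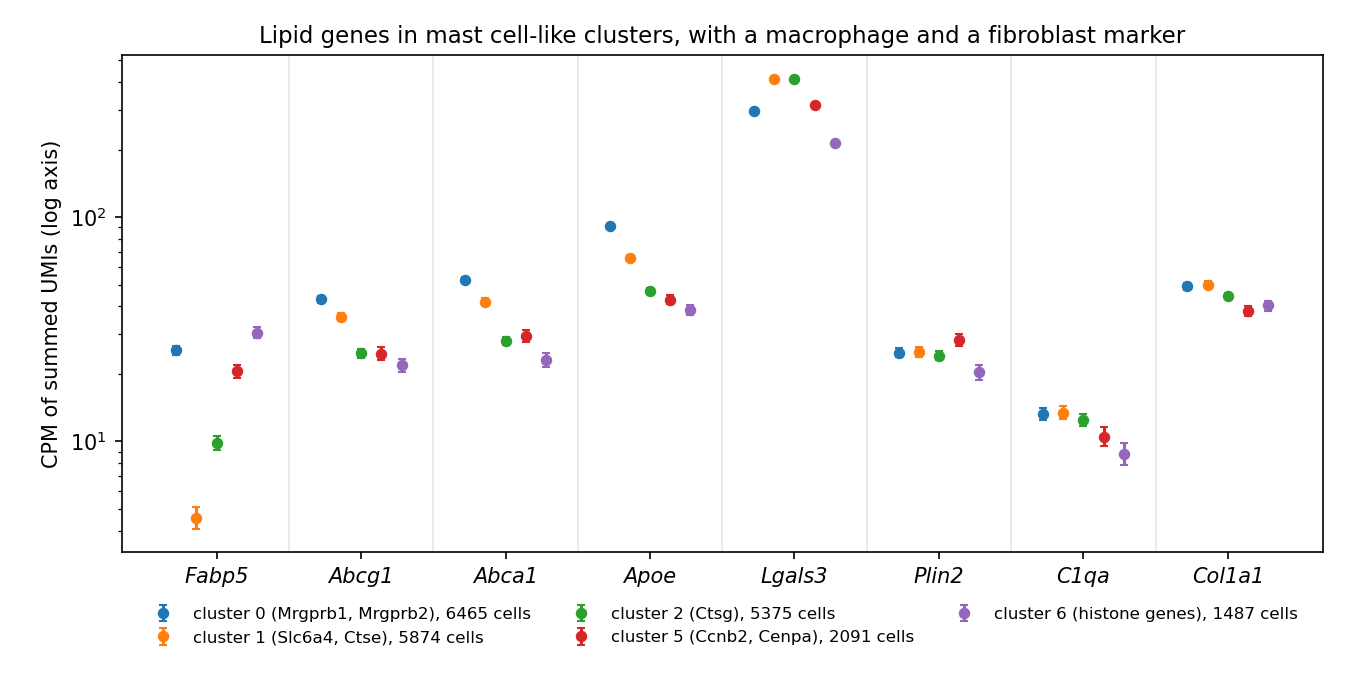
Level of 6 lipid genes, the macrophage marker C1qa and the fibroblast marker Col1a1 in the 5 mast cell-like clusters (CPM, log axis, bars are exact 95% Poisson intervals). Fabp5 ran from 4.56 CPM in cluster 1 to 30.5 CPM in cluster 6, while C1qa and Col1a1 stayed between 8.80 and 13.4 CPM and between 38.3 and 49.9 CPM.

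Mast cell-like cells differed most among themselves in Fabp5. It was 25.4 CPM (24.3 to 26.6) in cluster 0, which expressed the receptors Mrgprb1 and Mrgprb2, and 4.56 CPM (4.05 to 5.11) in cluster 1, which expressed the serotonin transporter Slc6a4 and the protease Ctse. That is a 5.58-fold difference (4.93 to 6.34) at like depth, with medians of 9817 and 9426.5 UMIs, and at like levels of C1qa (13.2 and 13.4 CPM) and Col1a1 (49.1 and 49.9 CPM). Xist was not alike, at 763.5 CPM in cluster 0 and 287.1 CPM in cluster 1. The cause of the Fabp5 difference was not tested. Cluster 2, with cathepsin G (Ctsg), had 9.83 CPM, and the cycling clusters 5 and 6 had 20.5 and 30.5 CPM.

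Both exporters were highest in cluster 0, with Abca1 at 52.5 CPM and Abcg1 at 43.1 CPM. They were lowest in cluster 6, led by histone genes, at 23.1 CPM and 21.8 CPM, a span of 2.28-fold and 1.97-fold. Apoe too was highest in cluster 0, at 90.9 CPM, and lowest in cluster 6, at 38.7 CPM. C1qa was 13.2 CPM and 8.80 CPM in these clusters. Over all mast cell-like cells, the Apoe ratio to macrophage-like cells was below that of Cd68 and above that of the other macrophage markers. Lgals3 was higher in clusters 1 and 2, at 413 CPM and 412 CPM, than in cluster 0, at 296 CPM, or cluster 6, at 213 CPM. Plin2 hardly varied over the 3 clusters without cycling genes, from 24.0 to 25.0 CPM. Cluster 6 cells were also the deepest mast cell-like cells, with a median of 23654 UMIs.

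Tags went with class, so levels by tag are given within a class. Fibroblast-like cells with the Matrigel tag alone (2507 cells) had Fabp5 at 126 CPM and those with the Cafum tag alone (311 cells) at 37.6 CPM, with Spp1 at 4847 CPM and 4318 CPM. Cma1 was 1204 CPM in the former and 7651 CPM in the latter, and 245 of the 311 Cafum-tagged cells were in F2. Fibroblast-like cells with no tag (1070 cells) had Fabp5 at 43.4 CPM and Cma1 at 1409 CPM. With the Macrophages tag alone (43 cells) Fabp5 was 33.0 CPM and Cma1 1219 CPM. With more than 1 tag (1169 cells) they were 86.8 CPM and 5937 CPM. The part of mast cell RNA and of subcluster in the Fabp5 difference was not tested. Macrophage-like cells with the Macrophages tag alone had Gpnmb at 7.60 CPM, Spp1 at 169 CPM and Apoe at 7147 CPM.

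Within macrophage-like cells at equal depth, Apoe and Lgals3 tended to be high in different cells. Spearman's rho over 1972 thinned cells, without the 2 cells rich in Gpnmb, was -0.34 for this pair, and -0.24 in the 1210 cells outside M1 and M6. Cd36 with Abca1 gave 0.31 and Apoe with Abca1 also 0.31, and these were 0.23 and 0.17 outside M1 and M6. Apoe with Cd36 gave 0.27 over all these cells but 0.04 outside M1 and M6. Trem2 with Gpnmb gave 0.05 and Trem2 with Fabp5 0.03, at counts too sparse to read. In 4913 fibroblast-like cells the highest value was 0.24, for Apoe with Gpnmb, and it was 0.25 in the 3738 cells outside F2 and F9. In mast cell-like cells all pairs lay between -0.05 and 0.03. These cells share 1 library, and the values are a description.

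Over the 8 clusters of at least 100 cells, the genes whose log2(CPM + 1) was most like that of a lipid gene were named by Pearson's r. This is a description over 8 clusters of 1 library, 5 of them mast cell-like, so r rests largely on the contrast between classes. Trem2 was most like P2ry6, Aff3 and Oas2, with r between 0.998 and 0.999, and Cd36 was most like Gprc5c, Plbd1 and the endotoxin co-receptor Cd14. Spp1 was most like Fat1, Nfib and the matrix protein gene Dpt, and Gpnmb most like Kcnt2, Pmepa1 and Cp. Abca1 was most like Ptpn1, Zbtb21 and Mef2a, and Plin2 most like Tpcn1, Il18 and Tmod1. Lgals3 had the weakest likeness, with r of 0.942 for Cnn2.

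Of 106 other lipid genes in 7 lists, 105 were in the matrix and 89 passed the level of 5 CPM. Macrophage-like cells had 32 of them higher and 15 lower by 2-fold or more than mast cell-like cells, beside 18.0% and 11.9% of all genes tested. They had 23 higher and 12 lower than fibroblast-like cells, beside 18.0% and 17.7%. Fibroblast-like cells had 20 higher and 25 lower than mast cell-like cells, beside 21.9% and 15.7%. The 89 genes' median log2 ratios were 0.12, 0.34 and 0.06 for these 3 comparisons in turn, where those of all genes tested were -0.15, -0.07 and -0.02. The counts of the single lists below rest on 10 to 18 genes each and are to be read against the same shares of all genes.

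Of 12 uptake genes tested, 8 were higher and 0 lower in macrophage-like than in mast cell-like cells (18.0% and 11.9% of all genes), and 2 were higher and 4 lower than in fibroblast-like cells (18.0% and 17.7%). Their median log2 ratios were 1.57 and 0.03. The scavenger receptors Msr1 (145, 0.868 and 0.527 CPM in macrophage-like, fibroblast-like and mast cell-like cells, the order used from here on) and Stab1 (143, 2.18 and 1.29 CPM) were the 2 with the highest ratio to mast cell-like cells. Lipoprotein lipase, Lpl, stood at 175, 192 and 3.52 CPM, and the fatty acid carrier Fabp4 at 53.9, 462 and 10.4 CPM. Scarb1, the receptor for high-density lipoprotein, was at 13.0, 6.54 and 13.9 CPM.

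Of 10 tested genes of cholesterol efflux and LXR action, 4 were higher and 1 lower in macrophage-like than in mast cell-like cells (18.0% and 11.9% of all genes), with a median log2 ratio of -0.05. Pltp, which transfers phospholipid between lipoproteins, was at 544, 14.4 and 3.06 CPM, and Abcg3 at 21.3, 0.147 and 0.302 CPM. The LXR alpha gene Nr1h3 was low, at 4.15, 11.7 and 0.413 CPM, and LXR activity was not measured. Lpcat3, an LXR target enzyme of membrane lipids, was lowest relative to mast cell-like cells, at 53.6, 34.7 and 137 CPM, and Srebf1 was at 10.8, 9.79 and 17.4 CPM.

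The 15 lysosomal genes were all tested, and 8 were higher and 1 lower in macrophage-like than in mast cell-like cells (18.0% and 11.9% of all genes), with 4 higher and 1 lower against fibroblast-like cells (18.0% and 17.7%). Psap, the precursor of the saposins, was at 742, 418 and 74.8 CPM and the galactosidase Gla at 57.8, 29.1 and 9.06 CPM. Lysosomal acid lipase, Lipa, which frees cholesterol from its ester, was at 128, 54.4 and 23.6 CPM. The tetraspanin gene Cd63, whose protein mast cell granules also hold, was highest in mast cell-like cells, at 865, 1327 and 2055 CPM.

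Of 10 storage genes tested, 4 were higher and 0 lower in macrophage-like than in mast cell-like cells (18.0% and 11.9% of all genes), and 2 were higher and 0 lower than in fibroblast-like cells (18.0% and 17.7%). Their median log2 ratios were 0.28 and 0.56. The acyl-CoA synthetase Acsl1 was at 28.0, 8.81 and 7.52 CPM and Hilpda, an inhibitor of droplet lipolysis, at 33.7, 48.3 and 11.1 CPM. Soat1, which makes the stored cholesterol ester, was at 95.9, 118 and 108 CPM and the lipase Pnpla2 at 21.0, 11.1 and 31.5 CPM.

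Of 18 tested genes of cholesterol and fatty acid synthesis, 0 were higher and 9 lower in macrophage-like than in mast cell-like cells, with a median log2 ratio of -1.02, where 18.0% of all genes were higher and 11.9% lower. Fibroblast-like cells had 1 higher and 7 lower than mast cell-like cells (21.9% and 15.7% of all genes). Lanosterol synthase, Lss, was at 9.67, 7.63 and 33.3 CPM and the desaturase Scd2 at 109, 131 and 345 CPM. The sterol sensors Scap (7.87, 9.36 and 4.95 CPM) and Insig1 (36.9, 20.3 and 33.3 CPM) had the 2 highest ratios.

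Of 11 tested genes of fatty acid oxidation, 4 were higher and 0 lower in macrophage-like than in mast cell-like cells (18.0% and 11.9% of all genes). They included the nuclear receptor Pparg (43.7, 43.6 and 0.708 CPM) and the carnitine transferase Cpt1a (43.2, 13.0 and 9.26 CPM), while Hadha (65.3, 59.9 and 86.4 CPM) and Acadl (75.9, 105 and 119 CPM) had the lowest ratios.

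Of 13 tested genes of TREM2 signalling and of lipid-associated macrophages, 4 were higher and 4 lower in macrophage-like than in mast cell-like cells (18.0% and 11.9% of all genes), and 8 were higher and 2 lower than in fibroblast-like cells (18.0% and 17.7%). Their median log2 ratios were -0.23 and 1.49. Tyrobp, the adaptor through which TREM2 signals, was at 1692, 333 and 2466 CPM, so the class with the lowest Trem2 had the most of its adaptor. Ms4a7 was at 197, 1.60 and 1.12 CPM and the receptor kinase Axl at 37.7, 114 and 2.05 CPM. Cd9 (136, 161 and 367 CPM) and Cst7 (57.0, 28.6 and 215 CPM), both listed as lipid-associated macrophage genes, were highest in mast cell-like cells. In macrophage-like cells Cd9 stood at 0.370 and Cst7 at 0.266 of the mast cell-like level, beside 0.272 to 0.352 for the mast cell markers.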

How the data were processed

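Single-cell RNA was measured in 1 library by droplet capture on the 10x Chromium system. The authors deposited raw UMI counts per gene and barcode, with no normalization; the file headers name Cell Ranger 7.0.0. Per the submitters' processing notes, Cell Ranger 7.0.0, STAR, R 4.1.3, Seurat 4.1.1 and the build mm10 were used, with no role given for each; annotation and strand use are not given in the sources used here. The matrix also holds 3 tag features, whose deposited values of another kind were used only to sort cells by tag and kept out of gene totals. The tag library was not analysed here.

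Filters required 500 genes, 1000 UMIs and no more than 10% mitochondrial UMIs, which 33964 barcodes met. Scrublet, at an expected rate of 27.9%, called 4726 barcodes doublets (13.6%), of which 4679 had passed and were removed. Kept cells had 1001 to 243243 UMIs. Cells were clustered in scanpy 1.11.5 (2000 variable genes, 30 components, 15 neighbours, Leiden resolution 0.5, leidenalg 0.10.2) without the 208 listed genes. No file gave the authors' annotation, so clusters were named from marker lists (a marker counted at 50 CPM or more and 4 times its lowest cluster), and any departure from the study can stem from these rebuilt names. Of 12 clusters, 4 (310 cells) stayed unnamed and 1 was T cell-like (56 cells).

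Levels are CPM of counts summed over a class, with exact 95% Poisson intervals; ratios have exact conditional binomial intervals and shares Clopper-Pearson intervals at 5500 UMIs per cell. All cover counting error only. With 1 library there is no test, and a gene is called past a fold of 2 at a mean of at least 5 CPM over the 3 classes. The fold rule and the thinning were run on simulated counts with counting error alone and, for the rule, changes of 3-fold. These counts held no carried-over RNA and no outlying cells, so the run checks the calculation only. Named were all 10 genes, from each other list the 2 highest and 2 lowest ratios of macrophage-like to mast cell-like cells, and Tyrobp, Lpl, Nr1h3, Pparg, Lipa, Soat1, Fabp4, Scarb1 and Msr1; some results under this rule are not reported here. Gene positions are from GENCODE M21 (GRCm38). The genes, lists and markers were chosen with earlier results of these data known. Subclusters, the naming thresholds, the tag rule and the settings that leave out 2 cells or 4 subclusters were chosen after seeing the data.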

Additional observations from a re-analysis of the deposited data

How the results depend on the processing

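The counts of genes past the fold were recomputed in 15 alternative settings. At a fold of 3, fibroblast-like over mast cell-like cells had 5 of the 10 genes higher and 0 lower (8 and 1 at a fold of 2), beside 16.3% and 8.52% of all genes. The counts of other lipid genes were then 3 lower in macrophage-like than in mast cell-like cells (15 at a fold of 2; all genes 2.80%), 15 higher and 6 lower than in fibroblast-like cells (23 and 12; all genes 10.3% and 11.5%), and 13 lower in fibroblast-like than in mast cell-like cells (25; all genes 8.52%). The count of other lipid genes lower in macrophage-like than in mast cell-like cells moved most: it was 1 with called doublets kept, 25 without subclusters rich in markers of another class (added after seeing the data), and 31 with mast cell background subtracted. The share of all genes lower moved with it, to 1.43%, 21.2% and 41.0% from 11.9%. That subtraction also gave 1 of the 10 genes lower than in mast cell-like cells (Abcg1; 0 without it) and 25 other lipid genes lower than in fibroblast-like cells (all genes 36.2%). With no minimum CPM, 33 other lipid genes were higher in fibroblast-like than in mast cell-like cells (20 with it; all genes 31.4%). No ratio called past 2-fold changed direction. Calls were lost or gained only for Cd36 in fibroblast-like over mast cell-like cells (lost in 3 of 12 settings, lowest log2 0.51 with classes taken from single tags), Abcg1 in macrophage-like over fibroblast-like cells (lost in 2, lowest 0.76), Abcg1 in macrophage-like over mast cell-like cells (-1.24 with background subtracted), Spp1 in the same comparison (1.17 with classes from single tags) and Fabp5 in macrophage-like over fibroblast-like cells (-1.31 with classes from single tags). The cause was not tested. Of the other values, 305 moved by more than their counting interval and 145 did not. No paired analysis was possible because the 2 labelled samples are 1 expression library and its tag library. With 1 library and pooled mice, no value has an error over animals, and shares of sparse genes such as Trem2 and Gpnmb are limited by depth.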

Other observations

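Small clusters that stayed unnamed also held lipid genes. Cluster 9 (43 cells) carried all 6 fibroblast markers but was led by genes that include Slpi, Clu and the endothelial cadherin gene Cdh5. Gpnmb stood at 405 CPM (95% interval 372 to 440, counting error only) and Fabp5 at 451 CPM (417 to 488) in it, above the 137 CPM and 95.7 CPM of fibroblast-like cells, while Spp1 was lower, at 565 CPM against 4805 CPM. Cd36 was 79.1 CPM and Lpl 419 CPM there. Cluster 10 (35 cells) was led by genes that include Cdh19 and Apod, and had Lgals3 at 1606 CPM (1528 to 1688), Fabp5 at 287 CPM (255 to 323) and Gpnmb at 241 CPM (212 to 274), with Apoe at 93.7 CPM. C1qa was 49.4 CPM in cluster 9 and 24.4 CPM in cluster 10, against 2357 CPM in macrophage-like cells. These cells are few and of 1 library, and the clusters were picked after their values were seen.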
